A study of Mus musculus with 5 samples.

Results

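Prostaglandins are made from arachidonic acid. The cyclooxygenases Ptgs1 (constitutive) and Ptgs2 (inducible) oxidise it to prostaglandin H2, terminal synthases turn this intermediate into prostaglandin D2 or E2, and Hpgd, the prostaglandin dehydrogenase, starts the breakdown. In the retina these lipids act on vessels, glia and neurons, and Ptgs2 is known as a gene that inflammatory stimuli and injury switch on. The genes examined here were Ptgs1, Ptgs2, Ptgds, Ptges, Ptges2, Ptges3 and Hpgd. They were chosen by symbol, and all 7 were found among the 25655 gene symbols of the deposited count table.

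Total RNA was sequenced from the injured retina of wildtype C57BL/6 mice, aged 8 to 10 weeks at surgery, 7 days after optic nerve crush (ONC). Every retina in the comparison was crushed, so no uninjured retina enters it. The mice received daily intraperitoneal DMSO (the vehicle, 3 retinas, replicates 1, 2 and 3) or Sorbinil at 10 mg/kg, an inhibitor of aldose reductase (2 retinas, replicates 1 and 3), starting the day before ONC. The whole retina was used, so that neurons, glia, vessels and any adhering pigment epithelium were measured together, and both sexes were used in the study.

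Library totals ranged from 56096541 to 90288552 counts. The 10 rod markers together measured between 70150 and 135486 CPM (counts scaled to the size of the library) in every retina. Sorbinil replicate 1 stood apart from the other 4 retinas. In it, 17.4% of the 14992 genes tested were at least 2-fold below the DMSO mean, compared to 0.914% in Sorbinil replicate 3. All 10 rod markers were highest in Sorbinil replicate 1, while all 10 Müller glia markers, all 12 microglia and macrophage markers and 14 of 15 endothelium and pericyte markers were lowest there. The fold change of each enzyme is therefore given with and without this retina. In whole-tissue RNA, fewer cells of a type and less RNA per cell cannot be told apart.

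No prostaglandin enzyme differed between the groups at the threshold of the study, an unadjusted p-value of at most 0.1 with at least a 2-fold change. All 7 genes passed the filter on low counts, and 0 of the 7 were called, where 1.71% of all 14992 genes tested were called (1.35% lower and 0.360% higher). By edgeR's quasi-likelihood test 0 of the 7 had an unadjusted p-value under 0.05, where 751 of all 14992 genes did. By the DESeq2 Wald test 0 of the 7 did. The DMSO and Sorbinil retinas overlapped for each of the 7 genes. Over all genes, the groups did not overlap for 23.2% (Sorbinil below for 10.5% and above for 12.8%). The fitted change was lower in Sorbinil for 5 of the 7 genes, compared to 51.0% of all genes, with a median log2 fold change of -0.20 over the 7 and of -0.01 over all genes.

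The regions upstream of 3 members are shown, the only ones whose windows lie wholly or mostly before the gene start in GENCODE. Their levels played no part in this choice. Ptgs1 and Hpgd, the pair with the most similar profiles over the 5 retinas, were low in Sorbinil replicate 1, and Ptges3 was high there. A link between sequence and level was not tested. The sequences are from RefSeq promoter windows of build GRCm38.p6, placed on GRCm39 by their unique exact match, and each is printed up to the base before the gene start in GENCODE. Ptgs1 lies at chr2:36120188-36120437, Hpgd at chr8:56747337-56747542 and Ptges3 at chr10:127894601-127894815, all on the plus strand. Capitals mark GC boxes, GGGCGG on either strand, which 32.7% of 32851 promoter windows of 250 bases contain.
Ptgs1: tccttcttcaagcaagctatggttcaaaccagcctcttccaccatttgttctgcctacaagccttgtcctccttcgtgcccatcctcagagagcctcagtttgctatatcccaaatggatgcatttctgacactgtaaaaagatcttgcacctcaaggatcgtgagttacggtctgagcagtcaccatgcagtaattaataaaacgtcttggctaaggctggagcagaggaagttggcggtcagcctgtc
Hpgd: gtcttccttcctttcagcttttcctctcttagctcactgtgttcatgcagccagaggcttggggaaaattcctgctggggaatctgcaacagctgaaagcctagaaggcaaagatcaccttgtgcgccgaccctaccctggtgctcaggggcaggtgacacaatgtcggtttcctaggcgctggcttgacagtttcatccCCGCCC
Ptges3: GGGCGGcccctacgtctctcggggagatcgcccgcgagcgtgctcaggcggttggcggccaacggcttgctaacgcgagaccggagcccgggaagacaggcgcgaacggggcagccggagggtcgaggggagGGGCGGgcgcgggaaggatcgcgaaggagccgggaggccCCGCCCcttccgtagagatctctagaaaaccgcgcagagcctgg
The 250-base window of Ptges3 held 38 CG dinucleotides and 3 GC boxes, that of Hpgd 9 and 1, and that of Ptgs1 5 and 0. Those of the other members held 15 and 0 (Ptges2), 13 and 1 (Ptgs2), 8 and 2 (Ptges) and 2 and 0 (Ptgds). The median over all windows was 6 CG dinucleotides. Neither TATAAA, found in 12.4% of windows, nor TGACGT, found in 6.47%, occurred in the windows of the 7 genes on either strand. CACGTG, found in 6.02%, occurred in that of Ptges2 alone, 77 bases before the RefSeq start. The windows are counted from RefSeq starts, and those of Ptgs2, Ptgds and Ptges lie wholly, and that of Ptges2 almost wholly, inside the gene as GENCODE bounds it. These letters describe the windows, and nothing on binding was measured.

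The enzymes differed widely in level. Per kilobase of the canonical GENCODE transcript, Ptges3 measured 96.5 ± 8.0 CPM per kb (SD, n = 3) in the DMSO retinas. It was followed by Ptgds (32.7 ± 15.3), Ptges2 (7.37 ± 1.22), Hpgd (3.79 ± 0.21), Ptgs1 (0.942 ± 0.120), Ptges (0.673 ± 0.111) and Ptgs2 (0.124 ± 0.065). This order per length held in each of the 5 retinas. In DMSO replicate 3, Ptgs1 (0.810 CPM per kb) and Ptges (0.794) were close. Before division by length, Ptges was the higher there (2.93 against 2.32 CPM) and in Sorbinil replicate 3 (3.06 against 2.52 CPM). Ptges2 was then above Ptgds in Sorbinil replicate 1 (55.6 against 22.6 CPM). The neighbours Ptgs1 (0.451 to 1.05 CPM per kb) and Ptges (0.294 to 0.830) had overlapping ranges over the 5 retinas. Within each retina Ptgs1 was above Ptges per length. The ranges of Ptgds (12.2 to 50.2) and Ptges2 (5.75 to 10.7) were separate per length, but overlapped before division by it.

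**Figure D1:**
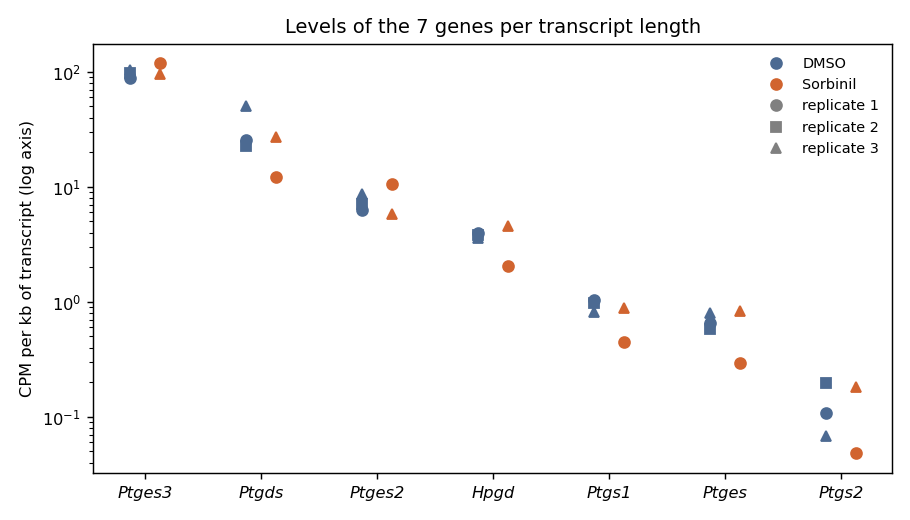
CPM per kilobase of canonical transcript (log axis) for the 7 genes, ordered by the DMSO mean, with 1 point per retina (colour for the group, shape for the replicate number). The order is the same in all 5 retinas, and Ptges3 lies far above Ptgs2, at 96.5 against 0.124 CPM per kb in the DMSO mean.

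Among the cyclooxygenases, Ptgs1 was the more abundant in each retina. Ptgs1 (ENSMUSG00000047250, chromosome 2 from 36120438 to 36142287, plus strand, GRCm39) measured 3.00, 2.78 and 2.32 CPM in DMSO replicates 1, 2 and 3. It measured 1.29 CPM in Sorbinil replicate 1 and 2.52 CPM in Sorbinil replicate 3. Sorbinil replicate 1 was thus the lowest retina, while Sorbinil replicate 3 lay among the DMSO retinas. Ptgs1 averaged 2.70 ± 0.35 CPM (SD, n = 3) with DMSO, compared to 1.91 ± 0.87 CPM (SD, n = 2) with Sorbinil. The fitted log2 fold change of -0.50 (standard error 0.35, 95% interval from -1.37 to 0.37) was within the spread of the retinas, with an adjusted p-value of 0.758 over all genes (0.21 unadjusted, edgeR's quasi-likelihood test). Leaving out Sorbinil replicate 1 gave -0.09, and leaving out replicate 3 gave -1.06.

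Ptgs2 (ENSMUSG00000032487, chromosome 1 from 149975194 to 149983978, plus strand) was the rarest of the enzymes. DMSO replicates 1, 2 and 3 had 50, 74 and 18 counts, while Sorbinil replicate 1 had 12 and replicate 3 had 59. This corresponds to 0.517, 0.926 and 0.324 CPM with DMSO and to 0.228 and 0.869 CPM with Sorbinil. The highest retina was DMSO replicate 2 and the lowest Sorbinil replicate 1, and within each group the retinas spread over more than 2-fold. Counting error alone put Sorbinil replicate 1 between 0.118 and 0.399 CPM (exact Poisson 95% interval), which overlaps DMSO replicate 3 at 0.192 to 0.512 CPM. These intervals cover counting error only. Between the groups the log2 fold change was -0.09 (standard error 0.69, 95% interval from -1.81 to 1.63, unadjusted p-value 0.898), so that changes of more than 2-fold in either direction lie within the interval. The value was 0.56 without Sorbinil replicate 1, -1.37 without Sorbinil replicate 3 and 0.38 without DMSO replicate 2, so that single retinas set its sign. The antisense gene Ptgs2os shares 476 exon bases with Ptgs2. The labels describe reverse stranded libraries, but whether the counting used strand is not given in the sources used here.

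The ratio of Ptgs1 to Ptgs2 per length was 9.60, 4.97 and 11.9 in the DMSO retinas. In Sorbinil replicates 1 and 3 it was 9.38 and 4.80. The ratio in Sorbinil replicate 1 lay inside the DMSO range and that in Sorbinil replicate 3 just below it, even though both genes were lowest in Sorbinil replicate 1.

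**Figure D2:**
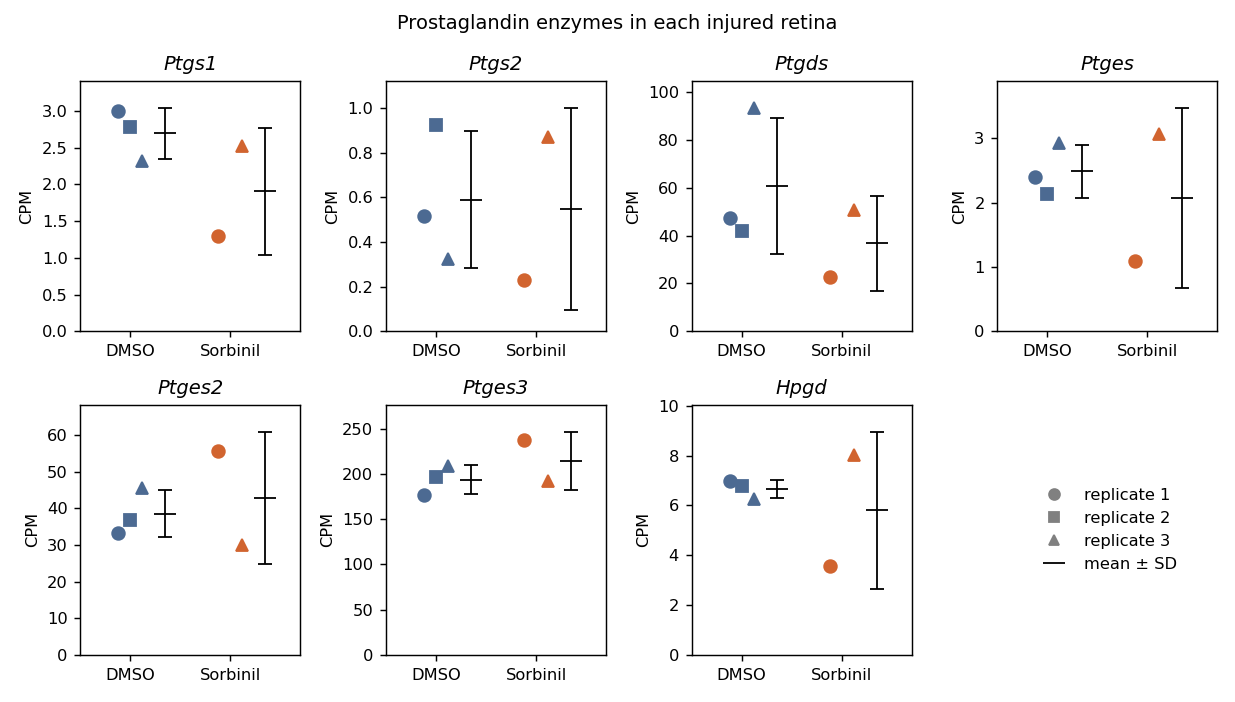
CPM of each gene (linear axes from 0) in the 3 DMSO and 2 Sorbinil retinas, with a point per retina shaped by replicate number and the mean ± SD beside each group. The 2 Sorbinil retinas straddle or reach into the DMSO range for every gene, as for Hpgd at 3.58 and 8.04 CPM around DMSO values of 6.26 to 6.98 CPM.

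Ptgds, the lipocalin-type synthase that makes prostaglandin D2 and is secreted, had the largest range over the 5 retinas, at 2.04 on the log2 CPM scale. Ptgds (ENSMUSG00000015090, chromosome 2 from 25352795 to 25362601, minus strand) measured 47.3, 41.8 and 93.5 CPM in DMSO replicates 1, 2 and 3. It measured 22.6 CPM in Sorbinil replicate 1 and 50.8 CPM in Sorbinil replicate 3. DMSO replicate 3 was thus far above the other retinas, and Sorbinil replicate 3 exceeded 2 of the 3 DMSO retinas. The log2 fold change of -0.73 (standard error 0.49, 95% interval from -1.93 to 0.48) did not pass, with an adjusted p-value of 0.758 in edgeR (0.188 unadjusted). With the replicate number as a block it was -0.97, short of 2-fold, with an edgeR p-value of 0.00784 that adjustment took to 1. That fit compares the groups only through the retinas numbered 1 and 3, as DMSO replicate 2 has no Sorbinil counterpart. With group as the only term, the log2 fold change came to -0.28 without DMSO replicate 3, to -0.25 without Sorbinil replicate 1 and to -1.42 without Sorbinil replicate 3.

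Markers of the pigment epithelium, the cell layer behind the photoreceptors, moved with Ptgds. The summed level of the 11 markers was 109, 100.4 and 266 CPM in DMSO replicates 1, 2 and 3. With Sorbinil it was 84.9 CPM in replicate 1 and 148 CPM in replicate 3. For 9 of the 11 markers DMSO replicate 3 was the highest retina, and for 8 of the 11 the highest pair was DMSO replicate 3 with Sorbinil replicate 3. Rpe65, the visual cycle isomerase, measured 22.2 CPM in DMSO replicate 3 and 6.37 to 11.1 CPM in the other 4 retinas. No marker of the list was at 0 in any retina. The part of these cells in the Ptgds values was not tested.

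The synthases of prostaglandin E2 went 2 ways in Sorbinil replicate 1. Ptges, the inducible microsomal synthase (ENSMUSG00000050737, chromosome 2 from 30779483 to 30820196, minus strand), measured 2.40, 2.13 and 2.93 CPM with DMSO. With Sorbinil it measured 1.08 CPM in replicate 1 and 3.06 CPM in replicate 3, so that the Sorbinil retinas were the lowest and the highest of the 5. The log2 fold change was -0.25 (standard error 0.47, 95% interval from -1.41 to 0.90, unadjusted p-value 0.608). Without Sorbinil replicate 1 it was 0.32, and without Sorbinil replicate 3 it was -1.19. The lncRNA gene Gm74745, annotated antisense to Ptges, shares 317 exon bases with it.

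Ptges2, the membrane-associated synthase (ENSMUSG00000026820, chromosome 2 from 32285659 to 32295786, plus strand), measured 33.2, 36.7 and 45.6 CPM in the DMSO retinas. It measured 55.6 CPM in Sorbinil replicate 1, the highest retina, and 30.0 CPM in Sorbinil replicate 3, the lowest. The log2 fold change of 0.15 had a standard error of 0.29, a 95% interval from -0.56 to 0.87 and an unadjusted p-value of 0.613. This interval lies within a 2-fold change in either direction. Leaving out Sorbinil replicate 1 turned it to -0.35, and leaving out replicate 3 gave 0.53.

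Ptges3, the cytosolic synthase that is also a co-chaperone of HSP90 (ENSMUSG00000071072, chromosome 10 from 127894816 to 127913141, plus strand), measured 177, 196 and 208 CPM with DMSO. The Sorbinil retinas measured 237 CPM (replicate 1) and 192 CPM (replicate 3), the first above every DMSO retina and the second among them. Ptges3 was the steadiest enzyme, with a range of 0.43 on the log2 CPM scale over the 5 retinas. Its log2 fold change was 0.15 (standard error 0.15, 95% interval from -0.23 to 0.52, unadjusted p-value 0.372), an interval well inside a 2-fold change. Without Sorbinil replicate 1 it was -0.003, and without Sorbinil replicate 3 it was 0.29. A processed pseudogene of Ptges3 on chromosome 6 and the related gene Ptges3l are annotated, and reads shared with them may have been split.

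The photoreceptor markers had the same high retina as Ptges2 and Ptges3. Of the 8 cone markers 7 were highest in Sorbinil replicate 1, with a sum of 1696 CPM there and of 969 to 1362 CPM in the other retinas. For rods the summed level was 82609, 91010 and 97593 CPM in DMSO replicates 1, 2 and 3, 135486 CPM in Sorbinil replicate 1 and 70150 CPM in Sorbinil replicate 3. Sorbinil replicate 1 was the highest retina for 10 of 10 rod markers, and Sorbinil replicate 3 the lowest for 9 of 10. No rod marker was at 0 in any retina, and the part of photoreceptors in the levels of Ptges2 and Ptges3 was not tested. The ratio of Ptges2 to Ptges per length, which scaling of the library cannot change, lay between 9.77 and 12.2 with DMSO. It reached 36.3 in Sorbinil replicate 1, against 6.93 in replicate 3. Both Sorbinil retinas thus left the DMSO range, on opposite sides.

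**Figure D3:**
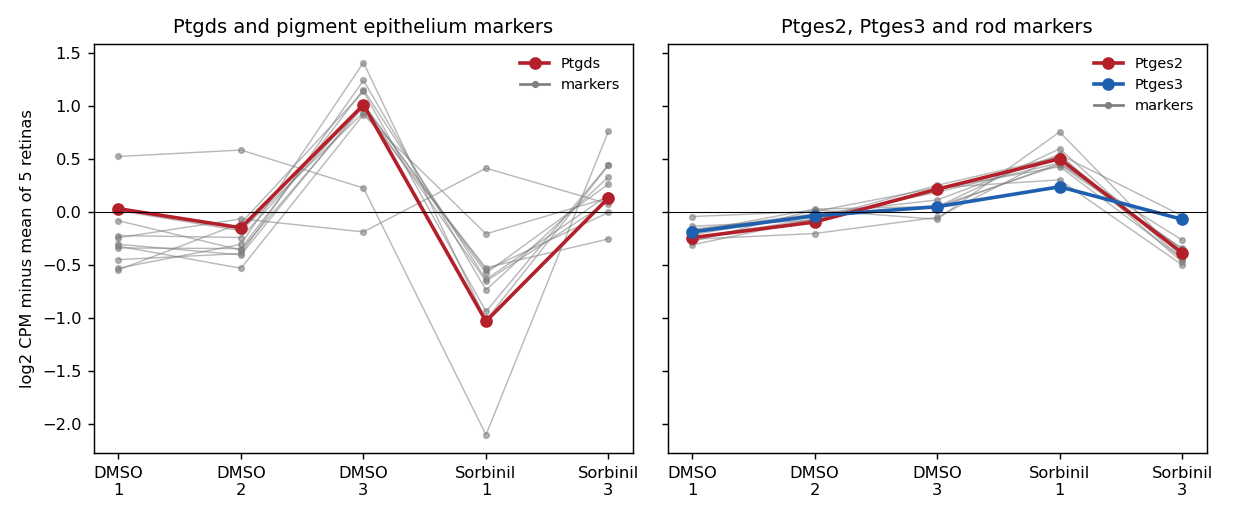
Log2 CPM minus its mean over the 5 retinas for Ptgds with 11 pigment epithelium markers (left) and for Ptges2 and Ptges3 with 10 rod markers (right), with 1 gray line per marker. Lines join the points of a gene and mark no order. Ptgds and most pigment epithelium markers peak in DMSO replicate 3 (93.5 CPM for Ptgds), while Ptges2, Ptges3 and the rod markers peak in Sorbinil replicate 1 (55.6 and 237 CPM for the enzymes).

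Hpgd, the dehydrogenase that inactivates prostaglandins (ENSMUSG00000031613, chromosome 8 from 56747543 to 56774082, plus strand), varied least among the DMSO retinas relative to its level, with 6.98, 6.77 and 6.26 CPM. The Sorbinil retinas measured 3.58 CPM in replicate 1 and 8.04 CPM in replicate 3. They thus lay below and above all DMSO retinas, outside the DMSO range on both sides. Hpgd averaged 6.67 ± 0.37 CPM (SD, n = 3) with DMSO, compared to 5.81 ± 3.16 CPM (SD, n = 2) with Sorbinil. This gave a log2 fold change of -0.20, a standard error of 0.35, a 95% interval from -1.07 to 0.68 and an unadjusted p-value of 0.598. Omitting Sorbinil replicate 1 turned this to 0.28, and omitting replicate 3 gave -0.90.

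Permutation of the group labels over all 10 groupings of the retinas gave p-values from 0.2 for Ptgs1 to 0.9 for Ptges2 (two-sided exact permutation test of the log2 values). The smallest p this design allows is 0.1. Per the study, the retinas of a group came from different mice, so that p-values measure the spread between these mice.

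Taken alone, Sorbinil replicate 1 was at least 2-fold below the DMSO mean for 4 of the 7 genes, where 17.4% of all genes tested were, and at least 2-fold above it for none, compared to 1.76% of all genes. On the log2 CPM scale the differences from the DMSO mean were -1.04 for Ptgs1, -1.15 for Ptgs2, -1.33 for Ptgds and -1.16 for Ptges. Hpgd followed at -0.89, while Ptges2 (0.54) and Ptges3 (0.30) were higher. In Sorbinil replicate 3 none of the 7 reached a 2-fold difference in either direction (0.914% of all genes were lower and 0.780% higher by that much), and the differences ran from -0.34 for Ptges2 to 0.66 for Ptgs2. Ptgs1 (-1.04 and -0.09) and Ptgds (-1.33 and -0.16) were below the DMSO mean in both Sorbinil retinas, while the other enzymes differed in sign between them, with Ptges3 at -0.01 in replicate 3. A single retina against a mean carries no test.

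**Figure D4:**
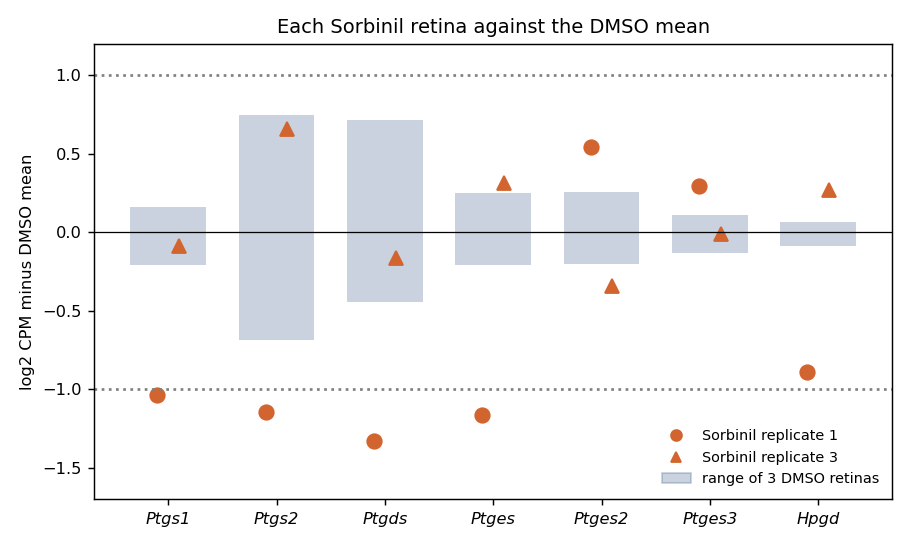
Difference of log2 CPM from the DMSO mean for each Sorbinil retina (points), with the range of the 3 DMSO retinas as a band and dotted lines at a 2-fold difference. Sorbinil replicate 1 lies below the band for 5 genes (-1.33 to -0.89) and above it for Ptges2 and Ptges3 (0.54 and 0.30). Sorbinil replicate 3 stays within 0.66 of the DMSO mean, but lies above the band for Ptges and Hpgd (0.31 and 0.27) and below it for Ptges2 (-0.34).

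In the fit without Sorbinil replicate 3, Ptgs1, Ptgds and Ptges passed the threshold of the study, all lower, as did 17.4% of the 15266 genes then tested. The adjusted p-values were 0.0306, 0.0547 and 0.0289 (edgeR's quasi-likelihood test), in a fit in which the lone Sorbinil retina is assumed to vary like the DMSO retinas. The remaining enzymes stayed short of 2-fold or of the p-value there, with Hpgd at -0.90 (adjusted p-value 0.0123, edgeR) and Ptges2 at 0.53 (adjusted p-value 0.0548, edgeR). In the fit without Sorbinil replicate 1, the log2 fold changes of the 7 enzymes ran from -0.35 for Ptges2 to 0.56 for Ptgs2.

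By the size of the difference between centred log2 CPM profiles over the 5 retinas, the closest pair of enzymes was Ptgs1 and Hpgd, with a root-mean-square difference of 0.16. Ptges2 and Ptges3 came next at 0.20. The profiles farthest apart were those of Ptgs2 and Ptges2, at 1.03. Among the 13054 tested genes with a mean of at least 1 CPM, the profiles nearest to Ptgds were those of Stra6, Slc24a5 and Cpxm2 (0.13 to 0.14). Those nearest to Ptges were Adra1a, Gpd1 and Trpm1 (0.04 to 0.07), and those nearest to Ptgs2 were Ahnak2, Celsr1 and Bst2 (0.20 to 0.23). Trpm1 is also in the list of bipolar cell markers. With 5 retinas these distances describe the samples and carry no p-value.

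Around these enzymes, a list of 44 genes for arachidonate release, other prostanoid synthases, breakdown, transport and receptors was examined, of which 43 were in the table and 33 passed the filter on low counts. None was called at the threshold of the study, where 1.71% of all genes were. An unadjusted p-value of at most 0.1, with no limit on the fold, was reached by 4 lower genes and 1 higher gene, 15.2% of the 33 compared to 11.3% of all genes. By direction, 12.1% of the 33 were lower at that p-value, where 4.33% of all genes were, and 3.03% were higher, where 6.98% of all genes were. Over the 33 genes the median log2 fold change was -0.32, compared to -0.01 over all genes. Against the DMSO mean, Sorbinil replicate 1 had a median of -0.64 and replicate 3 of -0.05.

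Of the enzymes that free arachidonic acid, Pla2g5, a secreted phospholipase, was the most abundant per length, at 75.6 CPM per kb in the DMSO mean. It measured 147, 149 and 162 CPM with DMSO and 197 and 124 CPM with Sorbinil, so that the Sorbinil retinas lay on both sides of the DMSO range. Pla2g4a, the cytosolic phospholipase coupled to prostaglandin synthesis, measured 1.89, 2.35 and 1.93 CPM with DMSO and 0.742 and 1.72 CPM with Sorbinil. Both Sorbinil retinas were below every DMSO retina, as for 10.5% of all genes. The log2 fold change of -0.73 (95% interval from -1.75 to 0.29) had an unadjusted p-value of 0.13 in edgeR. Faah, which hydrolyses the endocannabinoid anandamide, was the gene with the higher fitted value, at 0.59 on the log2 scale with an unadjusted p-value of 0.0773. It measured 43.4, 48.9 and 41.1 CPM with DMSO and 87.4 and 46.1 CPM with Sorbinil, and was 0.06 without Sorbinil replicate 1.

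Among the other synthases, Akr1b3 and Cbr1 had both Sorbinil retinas below every DMSO retina, as did 10.5% of all genes. Akr1b3 encodes aldose reductase, the target of Sorbinil, which can also form prostaglandin F2α, and measured 27.5, 25.3 and 23.9 CPM with DMSO and 17.6 and 20.5 CPM with Sorbinil. The log2 fold change was -0.42 (standard error 0.14, 95% interval from -0.77 to -0.08), with edgeR p-values of 0.025 before and 0.758 after adjustment. Cbr1, a carbonyl reductase that turns prostaglandin E2 into F2α, measured 29.1, 26.6 and 27.1 CPM with DMSO and 21.3 and 22.7 CPM with Sorbinil, a log2 fold change of -0.32 with an unadjusted p-value of 0.0382. Neither change reached 2-fold, and without Sorbinil replicate 1 they were -0.31 and -0.27. Prxl2b, another prostaglandin F synthase, had a log2 fold change of 0.12 (95% interval from -0.25 to 0.49). The prostacyclin synthase Ptgis (-0.67), the hematopoietic prostaglandin D synthase Hpgds (-0.54) and the thromboxane synthase Tbxas1 (-0.18) overlapped between the groups. Without Sorbinil replicate 1 these changes were -0.15, -0.01 and 0.03.

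In breakdown and transport, Abcc4, a pump that exports prostaglandins, had the smallest unadjusted p-value. It measured 3.62, 3.93 and 4.43 CPM with DMSO and 1.75 and 2.58 CPM with Sorbinil. Every Sorbinil retina was below every DMSO retina, as for 10.5% of all genes, and the log2 fold change was -0.88 (standard error 0.27, 95% interval from -1.54 to -0.22, unadjusted p-value 0.0176, adjusted p-value 0.758). Omitting Sorbinil replicate 1 gave -0.62, and omitting replicate 3 gave -1.18. The groups also did not overlap for Slco2a1, the prostaglandin uptake transporter, which had 9 to 32 counts per retina. They barely separated, at 0.198 CPM (11 counts) in DMSO replicate 3 and 0.192 CPM (13 counts) in Sorbinil replicate 3. Its log2 fold change was -0.75 (unadjusted p-value 0.158 in edgeR), and -0.67 without Sorbinil replicate 1. Nor did the groups overlap for Ptgr1, a prostaglandin reductase (-0.65, unadjusted p-value 0.105 in edgeR, and -0.41 without Sorbinil replicate 1). Ptgr2, a further reductase that acts after Hpgd, measured 49.1 to 60.4 CPM with DMSO and 66.4 and 58.6 CPM with Sorbinil (log2 fold change 0.17, 95% interval from -0.17 to 0.52). The transporter Slco3a1 (-0.40) and the carbonyl reductases Cbr3 (-0.12) and Cbr2 (0.14) overlapped between the groups.

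Receptors were rare. Of 10 receptor genes 5 passed the filter, and the remaining 5 (Ptgdr, Ptgdr2, Ptger2, Tbxa2r and the nuclear receptor Pparg) had at most 19 counts in a retina. Ptgfr, the receptor of prostaglandin F2α, was the most abundant per length among them (0.451 CPM per kb in the DMSO mean), at 3.42, 2.98 and 2.56 CPM with DMSO and 1.56 and 2.78 CPM with Sorbinil. Its log2 fold change was -0.46 (unadjusted p-value 0.217) and -0.09 without Sorbinil replicate 1. Ptger1, a receptor of prostaglandin E2, measured 0.652, 0.463 and 0.558 CPM with DMSO and 0.361 and 0.250 CPM with Sorbinil. It was the only receptor whose groups did not overlap, where 10.5% of all genes had every Sorbinil retina below every DMSO retina. Ptger1 had a log2 fold change of -0.87 (standard error 0.38, 95% interval from -1.81 to 0.07, unadjusted p-value 0.063 in edgeR). Its lower retina was Sorbinil replicate 3, with 17 counts, against 19 in Sorbinil replicate 1 and 31 to 63 in the DMSO retinas. With replicate 3 as the only Sorbinil retina the fitted value came to -1.14, and with replicate 1 as the only one to -0.62. Either fit assumes that the lone Sorbinil retina varies like the DMSO retinas. Ptgir, the prostacyclin receptor (-0.65), Ptger4 (-0.47) and Ptger3 (-0.12) overlapped between the groups.

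**Figure D5:**
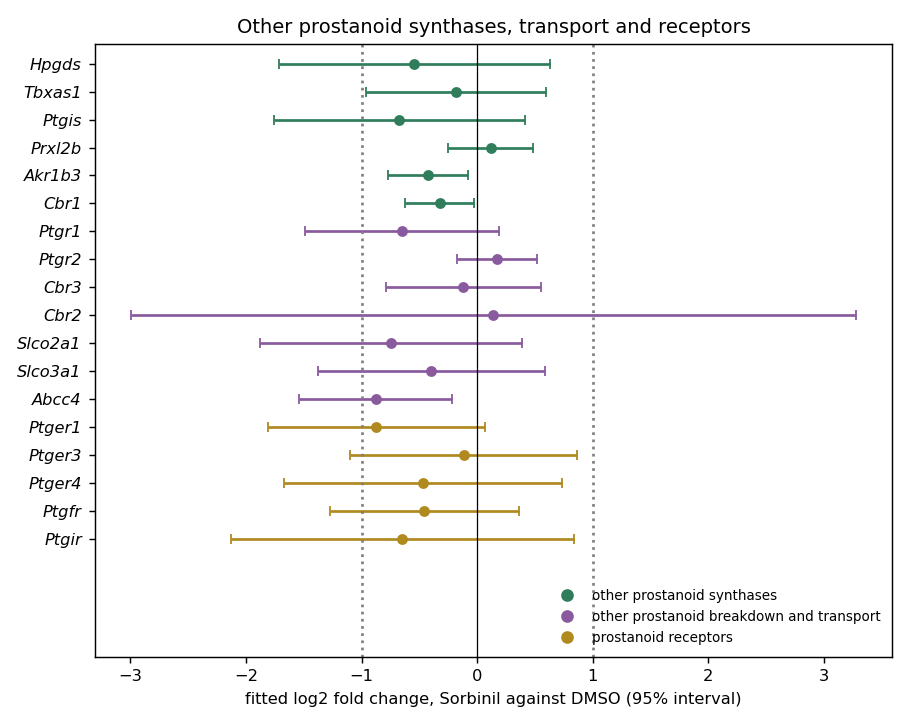
Fitted log2 fold change of Sorbinil against DMSO with its 95% interval for the 18 tested synthase, breakdown, transport and receptor genes beside the 7 enzymes, coloured by list, with dotted lines at a 2-fold change. The intervals of Akr1b3, Cbr1 and Abcc4 lie below 0 and all others include it, before any adjustment for the number of genes.

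The low retina of Ptgs1, Ptgs2, Ptgds, Ptges and Hpgd was also the low retina of several cell type lists. The microglia and macrophage list summed to 163 to 243 CPM with DMSO, compared to 111 CPM in Sorbinil replicate 1 and 181 CPM in replicate 3. For endothelium and pericytes the sums were 366 to 558, 184 and 470 CPM, and for Müller glia 6904 to 8360, 2715 and 7344 CPM. The endothelium and pericyte sum is led by Kdr and Flt1 and hides lower markers in Sorbinil replicate 3. Over these 15 markers the median log2 difference from the DMSO mean was -1.72 in Sorbinil replicate 1 and -0.43 in replicate 3. For 8 of the 15 both Sorbinil retinas were below every DMSO retina, as for 10.5% of all genes. Neuronal and astrocyte lists had the same low retina, with 10 of 10 amacrine and horizontal cell markers (327 CPM, compared to 771 to 1009 CPM in the others), 9 of 10 RGC markers, 7 of 8 bipolar cell markers and 5 of 5 astrocyte markers lowest there. No marker of these lists was at 0 in any retina. Their part in the levels of the enzymes was not tested.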

How the data were processed

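The study's methods state that the authors trimmed adaptors and used default settings of CLC Genomics Workbench to map them to GRCm39. They deposited whole-number total counts per gene symbol, without normalization. The annotation, the handling of reads on several genes and the use of strand are not given in the sources used here. The methods name a TruSeq total RNA kit, and the labels another stranded kit. Sorbinil replicate 2, excluded by the authors after principal component analysis, was not analysed here. The table's 5 value columns were assigned by the names they share with the labels.

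The test was the quasi-likelihood test of edgeR 4.0.16 (glmQLFit, glmQLFTest; R 4.3.3), after filterByExpr with a minimum count of 10 and TMM scaling, over all 14992 genes, with Benjamini-Hochberg adjustment and group as the term. CPM were computed on TMM-scaled library sizes. Differences of single retinas and profiles used log2 CPM with a prior count of 2. Permutation tests used log2(CPM + 0.01). Transcript lengths and positions are those of GENCODE vM39. No 2 libraries looked like duplicates (lowest chi-square over its degrees of freedom 24.6), and each was counted as 1 replicate. The fit was tested on simulated data, where it missed part of the 2-fold changes and also called some unchanged genes.

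The 7 enzymes, the other lists and the tests were chosen with earlier results of these data known. Named are the 7 enzymes, the synthase, breakdown, transport and receptor lists in full, genes of the other lists with an unadjusted p-value of at most 0.1 or the highest level per length, and the 3 nearest profiles of the 3 enzymes with the largest range. Pla2g4a and genes named from the leave-one-out fits were added after their values were seen. Of 60 pathway symbols 58 were in the table. Akr1b3 is listed as Akr1b1 in GENCODE. Alternatives covered filters, scaling, the DESeq2 1.42.0 Wald test, the likelihood ratio test, thresholds, the replicate block and each retina left out.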

Additional observations from a re-analysis of the deposited data

How the results depend on the processing

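Under each alternative that kept all 5 retinas, 0 of the 7 enzymes and 0 of the other pathway genes were called. Over all genes, the 257 calls became 408 with no filter on low counts, 148 with at least 10 counts required in every retina, 168 at the threshold of 0.05 with 2-fold, and 0 at an adjusted p-value of 0.05 (751 genes had an unadjusted p-value under 0.05, and the DESeq2 Wald test gave 21 at the adjusted threshold). With each retina left out in turn, calls over all genes ran from 164 (without DMSO replicate 1) to 2903 (without Sorbinil replicate 3), calls among the enzymes from 0 to 3 and among the other pathway genes from 0 to 16, the highest each time without Sorbinil replicate 3. The fit without Sorbinil replicate 3 tested 7 enzymes, 45 other pathway genes and 15266 genes in all. Without Sorbinil replicate 1 the pathway call was Ptger1, and without DMSO replicate 3 it was Ltc4s. The fit without Sorbinil replicate 1 tested 47 other pathway genes and 15357 genes in all. Each fit that omits a Sorbinil retina rests on a lone Sorbinil retina, assumed to vary like the DMSO retinas.

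Replicate numbers 1 and 3 occur in both groups, so that a block on the number compares the groups only through these retinas. The labels do not say what a shared number marks. Deviations of same-numbered retinas from their group means correlated at -0.24 and -0.12 over genes, but with 2 Sorbinil retinas the deviations mirror each other, so that these values do not settle whether the numbers pair the retinas. The fit with the replicate block called 203 genes and 0 enzymes, and gave Ptgds a log2 fold change of -0.97 (unadjusted p-value 0.00784 and adjusted p-value 1 in edgeR), Ptgs2 a log2 fold change of 0.16 and Cbr2 one of -0.14. The DESeq2 Wald test put Cbr2 at -0.0023. With 1 retina left out, log2 fold changes ran from -1.37 to 0.56 for Ptgs2, from -1.19 to 0.32 for Ptges, from -0.35 to 0.53 for Ptges2, from -0.0030 to 0.29 for Ptges3 and from -0.90 to 0.28 for Hpgd. The ranges that crossed 0 among other pathway genes were -0.43 to 0.032 for Tbxas1, -0.40 to 0.12 for Cbr3, -1.90 to 0.94 for Cbr2, -1.24 to 0.14 for Slco3a1, -0.53 to 0.21 for Ptger3, -1.26 to 0.019 for Ptger4 and -2.06 to 0.024 for Ptgir. The lowest or highest value came from leaving out a Sorbinil retina for each of these genes, and the cause was not tested. Of 91 alternative values of the 7 enzymes, 81 kept their direction and their side of the threshold. With 2 Sorbinil retinas the 95% intervals of Ptgs1, Ptgs2, Ptgds, Ptges and Hpgd reach beyond a 2-fold decrease.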

Other observations

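Beside prostaglandin synthesis, 16 genes of the lipoxygenase, leukotriene and epoxide branches of arachidonate metabolism were examined, of which 15 were in the table and 10 were tested. None had an unadjusted p-value of at most 0.1, compared to 11.3% of all genes, and the smallest was 0.225. Lta4h, the hydrolase that makes leukotriene B4, was the most abundant per length (15.0 CPM per kb in the DMSO mean). It measured 31.8, 31.0 and 29.9 CPM with DMSO and 32.7 and 27.6 CPM with Sorbinil, a log2 fold change of -0.04 with a 95% interval from -0.35 to 0.28 that excludes a 2-fold change. Alox5, the lipoxygenase that starts leukotriene synthesis, was rare, at 0.225 to 0.342 CPM with DMSO and 0.095 and 0.309 CPM with Sorbinil, and was chosen for mention after its values were seen.

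Lens markers differed by retina and not by group, and the source of their RNA was not tested. Of these, Mip was at 0 in at least 1 retina. The 6 genes summed to 1.01, 1.21 and 36.9 CPM in DMSO replicates 1, 2 and 3 and to 2.19 and 23.3 CPM in Sorbinil replicates 1 and 3. All 6 had DMSO replicate 3 and Sorbinil replicate 3 as the highest pair, the same pair as for 8 of the 11 pigment epithelium markers.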
